A study of Mus musculus with 12 samples.

Results

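The interferon regulatory factors are DNA-binding proteins that switch interferon genes and interferon-responsive genes on or off. Their 7 genes in this account, Irf1, Irf2, Irf3, Irf5, Irf7, Irf8 and Irf9, were taken by gene symbol from the 11289 genes of the deposited liver table, and all 7 have a row. Irf4 was not analysed here. Liver RNA came from 12 C57BL/6J mice of 8 to 10 weeks by the labels, 4 in each of 3 groups. The control group is labelled Control or Ctrl, and the labels do not say what these mice received. The Con A + PBS group (labelled Con A) received concanavalin A, a lectin from jack beans that stimulates T cells and causes acute hepatitis, at 15 mg/kg through the tail vein, and PBS 30 min later. The Con A + hWJ-MSCs group (labelled Con A + MSCs) received the same lectin and, 30 min later, 2000000 human mesenchymal stem cells of the Wharton's jelly of the umbilical cord. The number of cells and the age of the mice are those of the labels, and the paper gives a smaller number of cells and younger mice. Livers of the Con A groups were collected 24 h after Con A, and the labels give no such time for the control mice. How many cord donors the cells came from is not given in the sources used here, and the human cells were put into mice with a complete immune system. The labels give 4 separate animals per group, and p-values measure the spread between these animals.

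All members share an N-terminal domain that recognises GAAA-containing DNA. Irf3 and Irf7 are phosphorylated downstream of nucleic acid sensors and turn on the type I interferon genes, and Irf7 is itself an interferon-induced gene. Irf1 is induced by interferon gamma, Irf2 binds the same sites and can oppose it, and Irf9 is the DNA-binding part of the ISGF3 complex, which also holds Stat2. Irf5 acts downstream of Toll-like receptors and Myd88, and Irf8 sets the identity of monocytes, dendritic cells and B cells together with Spi1. Interferon gamma from activated T and NKT cells is a central mediator of hepatitis after Con A.

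The stretches in front of Irf1, Irf8, Irf7 and Irf2 are shown because the first 3 of these genes had the largest rises after Con A and Irf2 is the counterpart of Irf1. Each line gives the 250 bases before the RefSeq transcript start (GRCm38.p6, the mm10 build), 5' to 3' on the strand of the gene. Irf1 lies at chr11:53769764-53770013 on the plus strand, Irf8 at chr8:120736108-120736357 on the plus strand, Irf7 at chr7:141266425-141266674 on the minus strand and Irf2 at chr8:46739495-46739744 on the plus strand. Capitals mark matches to the IRF core AANNGAAA, to the interferon-stimulated response element (ISRE) GAAANNGAAA, which ISGF3 recognises, or to the core of the gamma-activated site (GAS) TTCNNNGAA, through which interferon gamma acts.
Irf1: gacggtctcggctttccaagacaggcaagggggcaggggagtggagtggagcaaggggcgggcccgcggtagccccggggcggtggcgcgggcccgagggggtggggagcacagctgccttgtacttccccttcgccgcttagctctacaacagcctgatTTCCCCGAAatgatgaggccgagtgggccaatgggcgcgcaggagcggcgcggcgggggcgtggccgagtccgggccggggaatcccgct
Irf8: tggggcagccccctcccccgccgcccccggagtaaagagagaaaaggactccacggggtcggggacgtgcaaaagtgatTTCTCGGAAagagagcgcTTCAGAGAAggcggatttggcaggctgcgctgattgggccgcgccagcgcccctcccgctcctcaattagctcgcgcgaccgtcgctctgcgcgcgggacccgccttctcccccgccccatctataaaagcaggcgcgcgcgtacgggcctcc
Irf7: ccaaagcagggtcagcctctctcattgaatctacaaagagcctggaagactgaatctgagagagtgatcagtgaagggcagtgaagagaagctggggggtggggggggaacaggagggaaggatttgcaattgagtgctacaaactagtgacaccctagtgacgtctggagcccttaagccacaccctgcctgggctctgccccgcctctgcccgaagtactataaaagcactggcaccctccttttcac
Irf2: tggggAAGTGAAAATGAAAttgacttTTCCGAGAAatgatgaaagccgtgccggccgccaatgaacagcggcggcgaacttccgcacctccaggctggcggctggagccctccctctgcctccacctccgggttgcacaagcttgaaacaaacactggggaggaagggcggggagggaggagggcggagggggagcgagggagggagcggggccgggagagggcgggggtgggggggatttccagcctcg

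Irf1 held 1 GAS core, TTCCCCGAA, at -90 to -82 from the transcript start. Irf8 held 2 GAS cores, TTCTCGGAA at -171 to -163 and TTCAGAGAA at -153 to -145. Irf2 held a GAS core at -224 to -216 and an ISRE at -241 to -232, which overlaps both of its IRF cores. In the windows of 300 bases searched on both strands, which run to 50 bases past the start, Irf3, Irf5, Irf7 and Irf9 had no match to these letters, and the other windows that RefSeq gives for Irf1, Irf8 and Irf9 had none. Of all 32851 RefSeq promoter windows, 23.9% held the IRF core, 3.44% the ISRE and 8.3% the GAS core. A match is a description of the letters and not a bound site, and sites outside these windows were not searched. For Irf9, the RefSeq start lies 414 bases inside the deposited transcript.

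**Figure D1:**
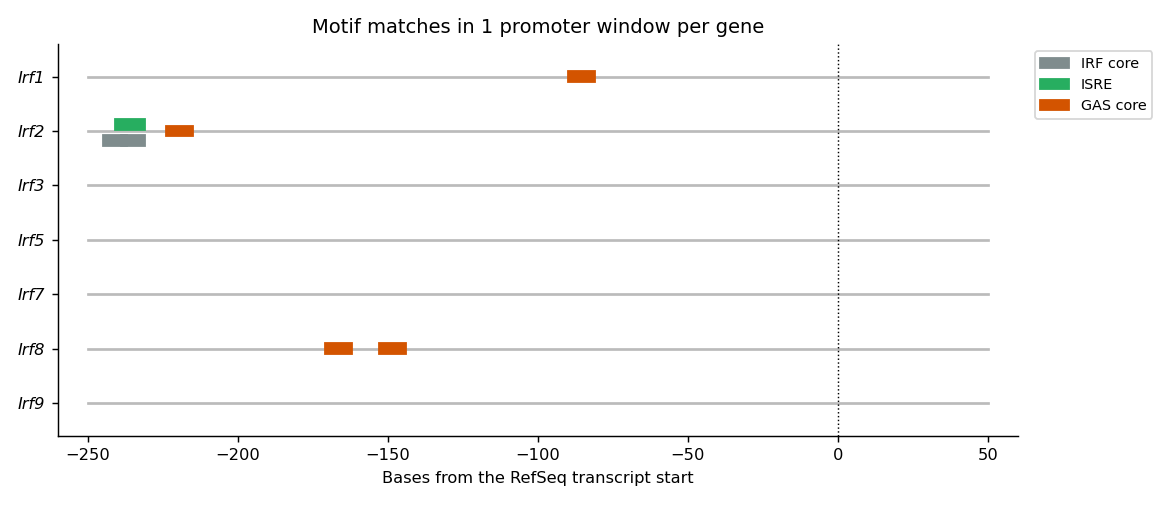
Matches to the IRF core (grey), the ISRE (green) and the GAS core (orange) in 1 RefSeq promoter window of each gene, with the x axis in bases from the transcript start (dotted line). GAS cores lie in the windows of Irf1, Irf2 and Irf8, and the only ISRE match is that of Irf2.

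The deposited values are whole-number scores that the authors had already normalized between mice. Totals per mouse ran from 17649654 to 17657159, a range of 0.0425% of their median, and the median gene was at 352 in every mouse, so these totals cannot stand for sequencing depth, which is unknown. No gene had fewer than 2 mice at 64 or above, which leaves low genes out of view. All 6 hepatocyte markers were in the table, at a summed score of 734039 to 1000287 in control mice.

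In the control liver the order of the members could be compared only per length. On the score per kb of the annotated transcript, Irf3 was highest at 561 ± 87.3 (SD, n = 4), followed by Irf7 at 431 ± 65.2 and Irf2 at 382 ± 46.1. Irf1 (276 ± 18.1) and Irf9 (249 ± 32.0) came next, then Irf5 (121 ± 27.6) and Irf8 (47.4 ± 12.3). The ranges over mice of Irf3 and Irf7, of Irf7 and Irf2 and of Irf1 and Irf9 overlapped, and those of the other neighbours did not. In Con A + PBS livers the order per kb was Irf7 (2530 ± 489), Irf1 (822 ± 253), Irf9 (441 ± 5.72), Irf3 (440 ± 36.1), Irf2 (299 ± 34.0), Irf8 (192 ± 55.3) and Irf5 (113 ± 13.3). There the neighbours Irf9 and Irf3, and Irf2 and Irf8, overlapped. In Con A + hWJ-MSCs livers Irf7 (2420 ± 377) again led, ahead of Irf1 (519 ± 95.4) and Irf3 (510 ± 33.8), which overlapped, and of Irf9 (430 ± 8.90), Irf2 (330 ± 19.6), Irf8 (113 ± 33.6) and Irf5 (70.2 ± 13.5). Whether the normalization had already corrected for length is not given in the sources used here.

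Con A + PBS was compared with control to ask which factors differed after Con A. Irf7, Irf8, Irf1 and Irf9 rose, and no member passed the test as lower. In the limma fit over all genes, where a call needs a Benjamini-Hochberg adjusted p under 0.05 and a change over 1.5-fold, 4 of 7 members were called higher and 0 lower. Of all genes tested, 19.5% were called higher and 19.2% lower. The median log2 fold change was 0.84 over the members and 0.05 over all genes. In bulk liver, a change in the number of cells of a type and a change in RNA per cell cannot be told apart.

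Among the factors that turn on type I interferon, Irf7 (chr7:141262706-141266421, minus strand) had scores of 817, 1165, 953 and 924 in the 4 control mice and of 6147, 5548, 6736 and 4181 in the Con A + PBS mice. All Con A + PBS mice lay far above all control mice. The log2 fold change was 2.54 (SE 0.17, limma adjusted p = 3.8e-07), a 5.81-fold rise and the largest among the members. Irf3 (chr7:44997648-45002848, plus strand), its constitutive partner, had scores of 1346, 986, 1226 and 996 in control and of 828, 982, 924 and 838 after Con A. The groups lay just apart, with the highest Con A + PBS mouse at 982 and the lowest control mouse at 986. The log2 fold change of Irf3 was -0.34 (SE 0.12, limma adjusted p = 0.0262), which is under the fold limit, so Irf3 was not called.

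Irf1 (chr11:53770014-53777323, plus strand) had scores of 560, 566, 645 and 592 in control and of 2160, 1268, 1312 and 2284 in Con A + PBS mice. Con A + PBS mice 1 and 4 stood well above mice 2 and 3, and all were above control. Irf1 rose by a log2 fold change of 1.52 (SE 0.20, limma adjusted p = 4.9e-05). Irf2 (chr8:46739745-46847458, plus strand), the factor that binds the same sites, had 1114, 840, 924 and 936 in control and 812, 780, 774 and 622 after Con A. Every Con A + PBS mouse was below every control mouse, and control mouse 1 was the highest. The log2 fold change of Irf2 was -0.35 (SE 0.11, limma adjusted p = 0.0195), again under the fold limit.

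Irf9 (chr14:55603571-55610030, plus strand), the DNA-binding part of ISGF3, had scores of 648, 758, 860 and 678 in control and of 1310, 1285, 1304 and 1326 after Con A. The spread over the Con A + PBS mice was small, with a coefficient of variation of 1.3% against 12.9% in control. The log2 fold change was 0.84 (SE 0.10, limma adjusted p = 2.2e-05), the smallest of the rises that were called.

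Irf8 (chr8:120736358-120756694, plus strand), the myeloid factor, had scores of 86, 148, 138 and 168 in control and of 570, 395, 466 and 757 after Con A. As for Irf1, Con A + PBS mice 1 and 4 were the highest. Irf8 rose by a log2 fold change of 2.01 (SE 0.25, limma adjusted p = 4e-05). Irf5 (chr6:29526625-29537319, plus strand), which acts below Toll-like receptors, had 184, 256, 292 and 325 in control and 286, 222, 228 and 252 after Con A. The groups overlapped, and the difference was -0.07 on the log2 scale (95% confidence interval -0.48 to 0.33, limma adjusted p = 0.757).

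**Figure D2:**
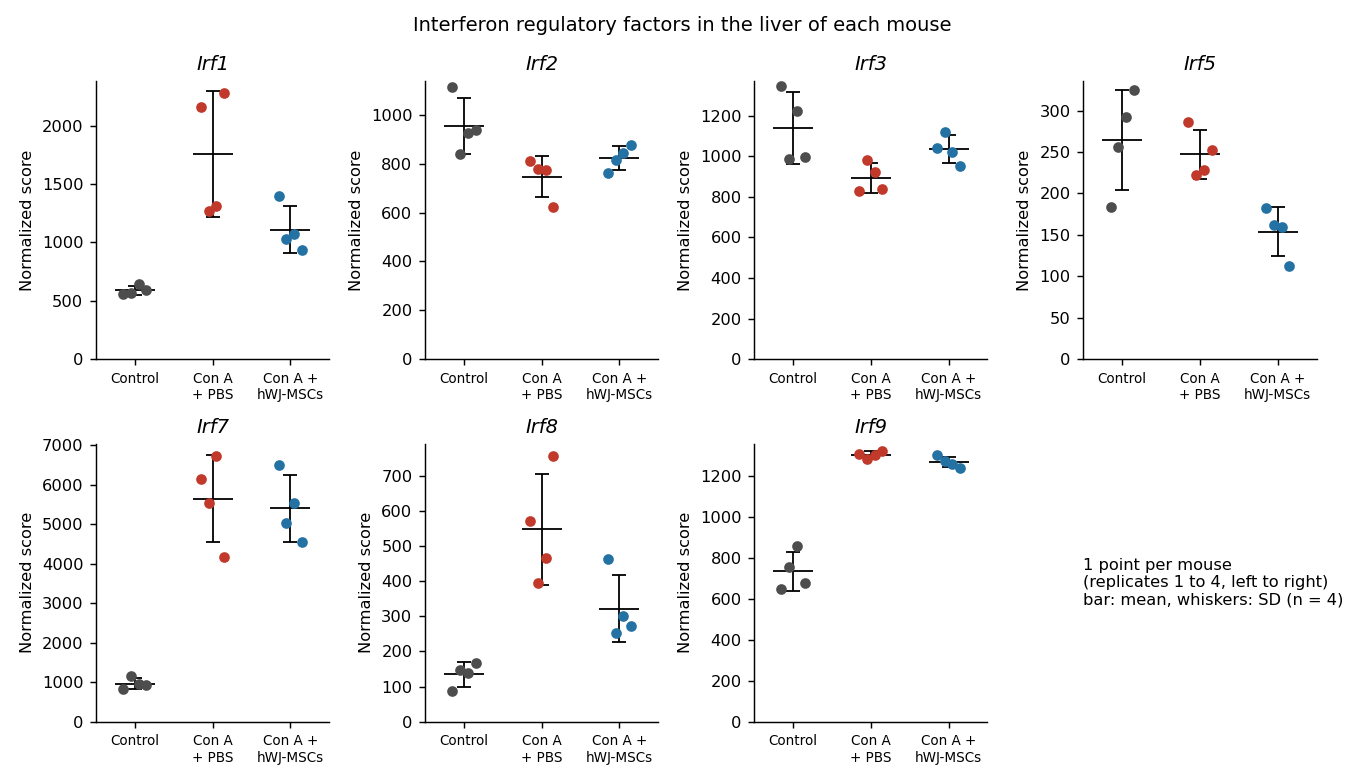
Normalized score of each member (y axis, linear, from 0) in each of the 12 mice, by group, with 1 point per mouse, the mean as a bar and the SD as whiskers (n = 4). Irf1, Irf7, Irf8 and Irf9 are above control in every mouse given Con A, while Irf5 is lowest in the mice given the cells, at 112 to 182.

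Markers of several cell types moved in the same comparison. The summed score of 7 monocyte and neutrophil markers was 325 to 479 in control and 5937 to 7479 in Con A + PBS mice, with 7 of 7 called higher. The summed score of 9 Kupffer cell markers (of 10 listed) was 5725 to 9110 in control and 851 to 1658 after Con A, with 9 of 9 called lower. For 6 dendritic cell markers (of 10 listed) it was 2322 to 4430 and 1772 to 2744, with 3 called lower (Clec9a, H2-Aa and Xcr1). For the 4 T and NK cell markers in the table (of 12 listed; Cd8a, Gzma, Gzmb and Nkg7) it was 24 to 58 and 524 to 973, and all 4 were called higher. Of the other lists, 2 of 4 pan-leukocyte markers were called higher (992 to 1307 against 1621 to 2356), 3 of 6 hepatocyte markers lower (Apoa1, Fah and Ttr; 574708 to 597682 after Con A), and 3 of 5 sinusoidal endothelial markers lower with Lyve1 higher (1836 to 2658 against 859 to 1196). The only B cell marker in the table, Ighm, was lower (122 to 336 against 74 to 204). No marker in the table was at 0 in all mice. The part of these shifts in the values of Irf8, Irf5 and the other members was not tested.

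Con A + hWJ-MSCs was compared with Con A + PBS to ask which factors differed when the cells were given. Irf5 was the only member called, and it was lower. In the limma fit, 0 of 7 members were called higher and 1 lower, where 4.20% of all genes were called higher and 4.38% lower. Without adjustment of p, 3 members (Irf1, Irf5 and Irf8) were lower past both limits, where 6.97% of all genes were. The median log2 fold change was -0.05 over the members and 0.00 over all genes. The same Con A + PBS mice serve in this comparison and in that with control.

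Irf5 had scores of 182, 162, 159 and 112 in Con A + hWJ-MSCs mice, all below the lowest Con A + PBS mouse at 222. It fell by 0.70 on the log2 scale (SE 0.19, 95% confidence interval -1.10 to -0.29, limma adjusted p = 0.0361), a 1.62-fold lower level. The call was lost when any 1 of 6 mice was left out. Without Con A + PBS mouse 1 the difference was -0.62 (limma adjusted p = 0.0988), without mouse 3 it was -0.73 (0.0581) and without mouse 4 it was -0.68 (0.0750). Without Con A + hWJ-MSCs mouse 2 the difference was -0.73 (limma adjusted p = 0.0859), without mouse 3 it was -0.72 (0.0790) and without mouse 4 it was -0.55 (0.0555).

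Irf1 had scores of 1402, 1030, 1073 and 932 with the cells. Mouse 1 overlapped the lower Con A + PBS mice, and the other Con A + hWJ-MSCs mice lay below all of them. The log2 fold change was -0.63 (SE 0.20, 95% confidence interval -1.05 to -0.20, limma adjusted p = 0.0523), which did not pass the test. It did pass without Con A + PBS mouse 2 (-0.77, limma adjusted p = 0.0230) and over genes with a mean score of at least 100 (limma adjusted p = 0.0489). Irf8 had scores of 462, 252, 301 and 272, of which mouse 1 lay within the Con A + PBS range and the other mice below it. Its log2 fold change was -0.76 (SE 0.25, 95% confidence interval -1.31 to -0.22, limma adjusted p = 0.0603) and also did not pass. It passed without control mouse 1 (-0.76, limma adjusted p = 0.0388), without Con A + PBS mouse 2 (-0.90, 0.0352) and without Con A + hWJ-MSCs mouse 1 (-0.95, 0.0488).

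Irf7 and Irf9 had scores close to those of Con A + PBS mice. Irf7 had 6516, 5027, 5548 and 4548, which spans most of the Con A + PBS range, and the difference was -0.05 on the log2 scale (95% confidence interval -0.42 to 0.31, limma adjusted p = 0.845). Irf9 had 1304, 1278, 1261 and 1242, and the difference was -0.04 (95% confidence interval -0.25 to 0.17, limma adjusted p = 0.801). The intervals leave room for differences of either sign in both genes. Irf2 had 760, 815, 842 and 876 (difference 0.15, limma adjusted p = 0.384) and Irf3 had 1044, 1120, 1024 and 953 (0.21, adjusted p = 0.213). Each overlapped the Con A + PBS mice, and neither passed the test.

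**Figure D3:**
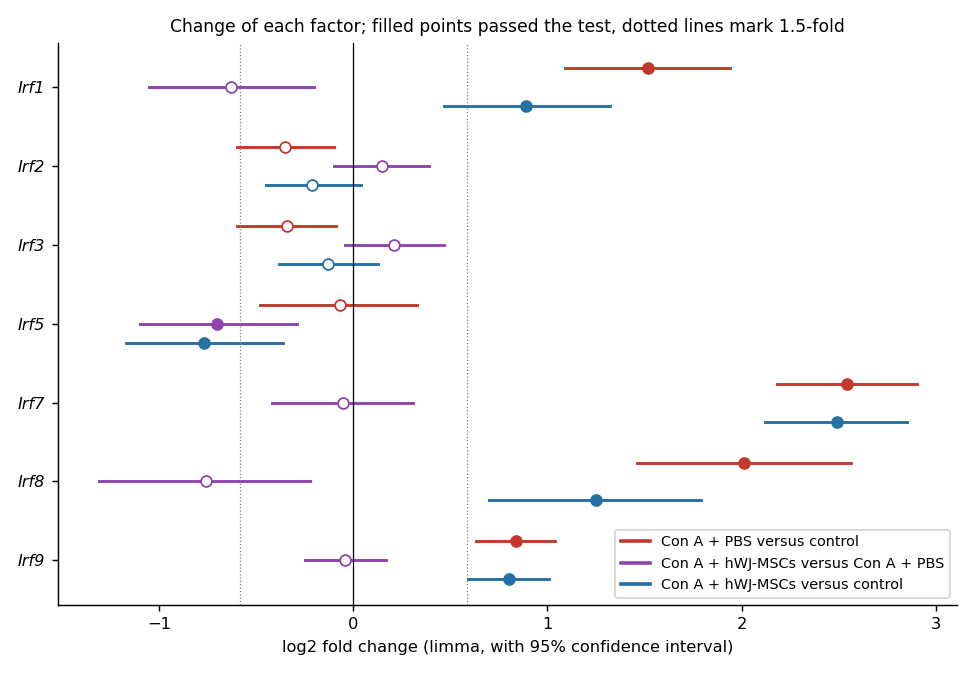
log2 fold change of each member (x axis) with its 95% confidence interval from limma in the 3 comparisons, where filled points were called and open points were not and dotted lines mark a fold change of 1.5. Irf7, Irf8, Irf1 and Irf9 are called above 0 in both comparisons with control, and Irf5 is the only filled point between the Con A groups, at -0.70.

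In these livers the monocyte and neutrophil markers summed to 2403 to 4508, below the 5937 to 7479 of Con A + PBS mice, but the lower sum was not shared by all 7 genes. Their median log2 fold change was -0.02, the mean log2 score of the list overlapped (8.09 to 8.88 with the cells, 8.36 to 8.78 with PBS), and Cd14 was the only 1 of the 7 called lower. Kupffer cell markers (725 to 2172), dendritic cell markers (1471 to 3731), T and NK cell markers (502 to 1042), pan-leukocyte markers (1444 to 2186) and Ighm (92 to 204) overlapped the Con A + PBS mice, with 0 called. Of the hepatocyte markers (586834 to 626855) Fah was called higher, and of the sinusoidal endothelial markers (1079 to 1280) Stab2 was called higher and Lyve1 lower. Their part in the values of Irf5, Irf1 and Irf8 was not tested.

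Con A + hWJ-MSCs was compared with control to ask what remained different with the cells. Irf7, Irf8, Irf1 and Irf9 were higher and Irf5 was lower. In the limma fit, 4 of 7 members were called higher, where 13.6% of all genes were, and 1 was called lower, where 13.1% were. The log2 fold changes were 2.49 for Irf7 (SE 0.17, limma adjusted p = 8.3e-07) and 1.25 for Irf8 (SE 0.25, limma adjusted p = 0.00209). Irf1 was higher by 0.89 (limma adjusted p = 0.00337) and Irf9 by 0.80 (limma adjusted p = 6.1e-05) on the same scale. For all 4, which had been picked by the call, the lowest Con A + hWJ-MSCs mouse was above the highest control mouse. The share of all genes whose groups lie apart in this way was not worked out, so the count is only a description. Irf5 fell by 0.77 (SE 0.19, limma adjusted p = 0.0061), with its highest treated mouse at 182 and its lowest control mouse at 184. Irf2 (-0.21, limma adjusted p = 0.168) and Irf3 (-0.13, adjusted p = 0.416) overlapped control and were not called. The median log2 fold change was 0.80 over the members and 0.04 over all genes.

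The ratio of 2 factors within a mouse is unaffected by a single scaling factor per mouse, but it can depend on a normalization that acts on ranks, and the method behind these scores is not given in the sources used here. The log2 ratio of Irf1 to Irf2, the activator over its counterpart, was -0.99, -0.57, -0.52 and -0.66 in control mice. It was 1.41, 0.70, 0.76 and 1.87 in Con A + PBS mice and 0.88, 0.34, 0.35 and 0.09 in Con A + hWJ-MSCs mice. The ratio was below 0 in every control mouse and above 0 in every mouse given Con A. Each difference of means is by arithmetic the change of Irf1 minus that of Irf2, both given above. Between Con A + PBS and control these genes had moved in opposite directions without overlap. The outcome of that ratio test was therefore fixed by their results and adds nothing to them. The means differed by 1.87 between Con A + PBS and control and by 1.10 between Con A + hWJ-MSCs and control (two-sided exact permutation p = 0.0286 for each, the smallest that 4 mice against 4 allow, and 0.0429 after Benjamini-Hochberg adjustment over 6 ratio tests). Between the Con A groups the ratio was lower with the cells by a mean of -0.77, and the groups overlapped (exact permutation p = 0.0857, adjusted 0.103).

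The log2 ratio of Irf7 to Irf3, the interferon-induced factor over the constitutive one, was -0.72, 0.24, -0.36 and -0.11 in control mice. It was 2.89, 2.50, 2.86 and 2.32 in Con A + PBS mice and 2.64, 2.17, 2.44 and 2.25 in Con A + hWJ-MSCs mice. All mice given Con A lay above all control mice. Between Con A + PBS and control, Irf7 and Irf3 had likewise moved in opposite directions without overlap, so this test too was fixed by their results. The means differed from control by 2.88 with PBS and by 2.61 with the cells (exact permutation p = 0.0286 for each, adjusted 0.0429). Between the Con A groups the difference was -0.27, with overlap (exact permutation p = 0.171, adjusted 0.171).

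**Figure D4:**
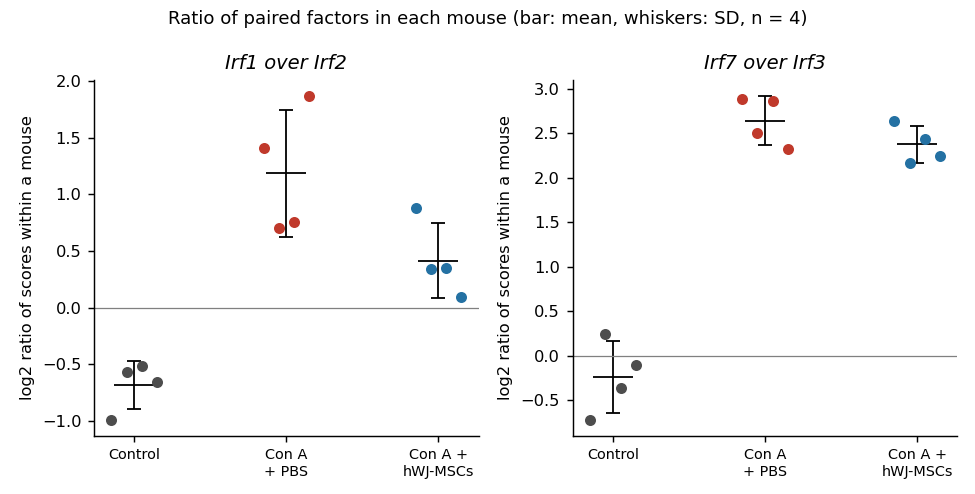
log2 ratio of the scores of Irf1 to Irf2 (left) and of Irf7 to Irf3 (right) within each mouse (y axis), by group, with the mean as a bar and the SD as whiskers (n = 4). In both panels the mice given Con A lie above the control mice, and the Con A groups overlap.

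The genes around the factors were taken from 6 lists by role, and counts are of genes in the table. Whether the calls of list genes hold with a mouse left out was not examined. Some calls between the Con A groups had an adjusted p close to the limit of 0.05 and may not hold. They are to be read against the shares of all genes, of which 19.5% were called higher after Con A, 4.38% lower with the cells than with PBS and 13.6% higher with the cells than in control, and against the medians of all genes of 0.05, 0.00 and 0.04. Of 9 receptors, kinases and STAT partners of interferon signalling, 4 were called higher after Con A, 0 were called between the Con A groups and 3 were higher with the cells than in control. The median log2 fold changes in the 3 comparisons were 0.41, -0.17 and 0.19. Stat2, which joins Irf9 in ISGF3, had 1300, 1322, 1807 and 1275 in control, 3006, 3400, 3400 and 2900 after Con A and 3801, 2971, 2727 and 3400 with the cells. The Con A groups overlapped, and both lay above control. Stat2 rose by 1.17 after Con A (limma adjusted p = 2.9e-05) and differed by 0.01 between the Con A groups (adjusted p = 0.957). Ifngr2, a chain of the interferon gamma receptor, rose by 0.81 (limma adjusted p = 0.00353).

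Of 15 sensors, adaptors and kinases upstream of Irf3, Irf5 and Irf7 (of 19 listed), 8 were called higher after Con A, with a median of 0.85. With the cells 1 of 15 was called lower than with PBS, near the 4.38% of all genes, and 0 higher, with a median of -0.30, and 6 were higher with the cells than in control. Ifih1, the sensor of long double-stranded RNA also called MDA5, had 720, 760, 848 and 768 in control, 2582, 1728, 2167 and 2244 after Con A and 1454, 1224, 1550 and 1175 with the cells. It rose by 1.48 after Con A (limma adjusted p = 3.4e-06) and was lower with the cells, by -0.69 (limma adjusted p = 0.0199), without overlap of the groups. Ddx58, which encodes the RNA sensor RIG-I, rose by 1.39 after Con A (limma adjusted p = 2e-06), and its difference of -0.39 with the cells was under the fold limit. Tlr3, a receptor for double-stranded RNA, rose by 1.34 (limma adjusted p = 1.8e-05). Tlr4, Tlr7, Tlr9 and Mb21d1 were not analysed here.

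Of 9 DNA-binding partners and coregulators (of 11 listed), Batf2, Nfkb1 and Rela were called higher after Con A, with a median of 0.07 over the list. A count of 3 of 9, beside 19.5% of all genes, and a median near that of all genes do not set the list apart. Batf2, a basic leucine zipper partner of Irf1, had 14, 18, 10 and 12 in control, 68, 78, 86 and 48 after Con A and 98, 68, 60 and 31 with the cells, and it rose by 2.29 after Con A (limma adjusted p = 0.00014). The NF-kB subunits Nfkb1 and Rela rose by 0.76 (limma adjusted p = 0.0001) and 0.75 (adjusted p = 0.00046). Irf2bp2, a corepressor that binds Irf2, was the only 1 of the 9 called between the Con A groups, where 4.38% of all genes were called lower. It had 1466, 995, 1448 and 1678 with PBS and 743, 822, 724 and 1048 with the cells, with 1 mouse of each group in overlap, and was lower by -0.73 (limma adjusted p = 0.0377). With the cells it was also lower than in control, by -0.99 (limma adjusted p = 0.00214), as was the coactivator Crebbp, while Batf2 was higher. The list's medians with the cells were -0.25 against Con A + PBS and -0.12 against control. Batf and Batf3 were not analysed here.

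Of 8 brakes on interferon signalling, 6 were called higher after Con A, with a median of 1.78, and the same number were higher with the cells than in control, with a median of 1.16. Socs1, Tnfaip3 and Usp18 were lower with the cells than with PBS and 0 were higher, with a median of -0.52. Socs1, an inhibitor of Janus kinases, had 7, 19, 13 and 10 in control, 669, 396, 471 and 735 after Con A and 272, 149, 165 and 249 with the cells, and the last 2 groups did not overlap. It rose by 5.46 after Con A (limma adjusted p = 1e-07) and was lower with the cells by -1.44 (limma adjusted p = 0.0224). Tnfaip3, the ubiquitin-editing enzyme A20, was lower with the cells by -2.18 (limma adjusted p = 0.00985). Usp18, which removes Isg15 and restrains the type I interferon receptor, was lower by -0.71 (limma adjusted p = 0.0495).

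The list of type I interferon-stimulated genes with ISRE promoters was set by role, and ISRE matches in its promoters were not counted here. All 20 of its genes in the table (of 21 listed, and Mx2 was not analysed here) were called higher after Con A, with a median of 3.29. Between the Con A groups 8 were called lower and 0 higher, with a median of -0.79, and 18 were higher with the cells than in control, with a median of 2.15. Rsad2, which encodes the antiviral enzyme viperin, had 67, 207, 152 and 110 in control, 8498, 3522, 4910 and 6720 after Con A and 2387, 646, 2630 and 681 with the cells. It rose by 5.49 (limma adjusted p = 3.4e-06) and was lower with the cells by -2.12 (limma adjusted p = 0.0264), without overlap of the Con A groups. Isg15, a ubiquitin-like modifier, was lower with the cells by -0.87 (limma adjusted p = 0.0488) and Cmpk2, a mitochondrial nucleotide kinase, by -1.54 (limma adjusted p = 0.0248). Ifit2, which binds RNA and limits translation, rose by 4.56 after Con A (limma adjusted p = 3.8e-05). Its difference with the cells was -1.82 and did not pass (limma adjusted p = 0.0521).

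Of 18 genes induced through Irf1 (of 22 listed), 16 were called higher after Con A, with a median of 2.32, and 15 were higher with the cells than in control, with a median of 2.09. Between the Con A groups 6 were called lower (Cd274, Cxcl10, Cxcl9, Gbp2, Gbp3 and Nos2) and 0 higher, with a median of -0.48. Cxcl9, a chemokine that draws T cells through Cxcr3, had 181, 292, 294 and 310 in control, 72750, 58152, 147850 and 147850 after Con A and 58152, 25819, 18931 and 13230 with the cells, the highest of which equals the lowest Con A + PBS mouse. It rose by 8.53 (limma adjusted p = 4.9e-08) and was lower with the cells by -1.99 (limma adjusted p = 0.0235). Gbp2, an interferon-induced GTPase, rose by 5.99 (limma adjusted p = 1.6e-07) and was lower with the cells by -1.18 (limma adjusted p = 0.0468). Nos2, the inducible nitric oxide synthase, was listed at 0, 0, 6 and 0 in control, at 441, 211, 198 and 550 after Con A and at 92, 22, 76 and 46 with the cells. It was called higher after Con A and lower with the cells (-2.59, limma adjusted p = 0.0324), and no fold is given against control mice listed at 0. Il15, Il27, Ciita and Ido1 were not analysed here.

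**Figure D5:**
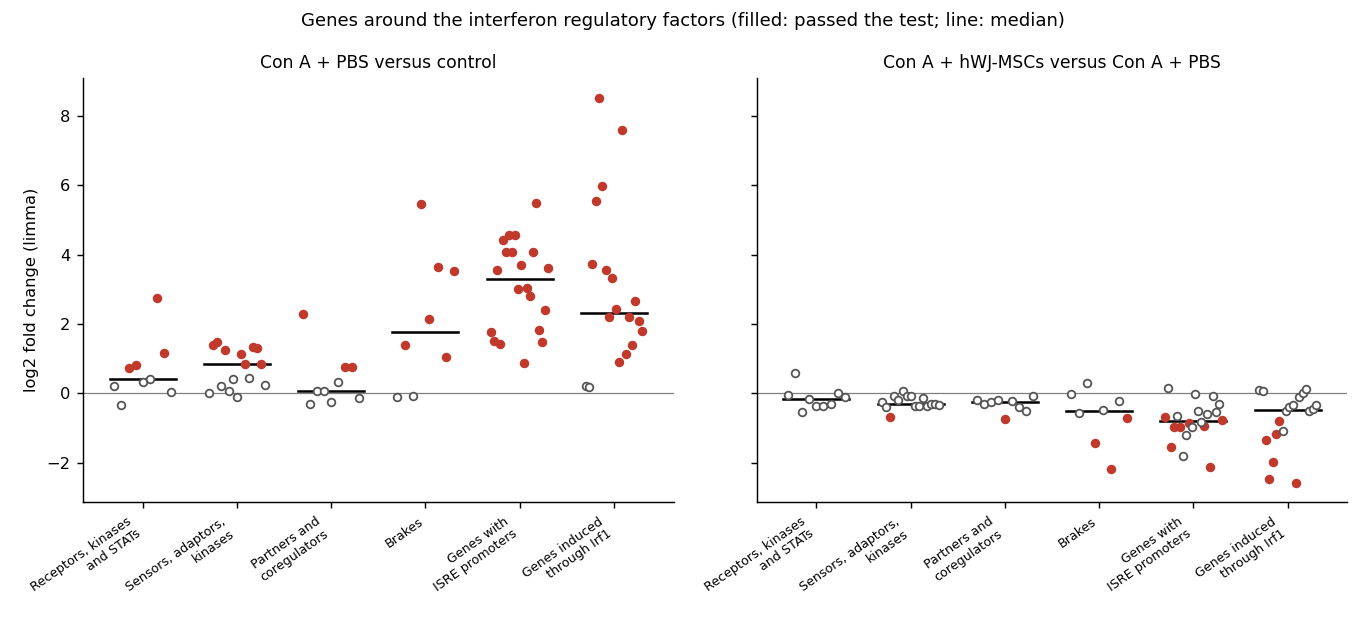
log2 fold change (y axis, limma) of each gene in the 6 lists, with 1 point per gene, red where called, open where not, and a line at the list's median, for Con A + PBS versus control (left) and for the cells versus PBS after Con A (right). After Con A all 20 genes listed as having ISRE promoters are called higher, and between the Con A groups every called gene is below 0.

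The genes whose pattern over the 12 mice was most like each member were found by Pearson's r of the log2 score, as a description, since all points share the 3 groups. Irf1 was most like Cxcl10 (r = 0.979) and Rras2 (0.979), and Irf8 was most like Slc12a4 (0.981) and Rras2 (0.980). Cxcl10, a chemokine on the list of genes induced through Irf1, had 52, 110, 82 and 74 in control, 5134, 1626, 2078 and 9858 after Con A and 1010, 425, 1022 and 408 with the cells. Con A + PBS mice 1 and 4 were highest for Cxcl10, as they were for Irf1 and Irf8. Irf7 was most like Ly6a (0.994), a cell surface antigen, and Gzmb (0.993), a granule protease of T and NK cells, and Irf9 most like Hp (0.989) and Crybb3 (0.986). Hp, which encodes the plasma protein haptoglobin, was at 341028, the largest score of the table, in all mice given Con A. Its score thus had no spread among these mice, and its likeness to Irf9 cannot reflect differences among them.

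Likeness was less crowded for the members that did not rise. Irf2 was most like Slc43a1 (r = 0.955) and Txnrd2 (0.934), with 13 genes above 0.9, and Irf3 most like Rmnd1 (0.977) and Hist2h2aa1 (0.957), with 85. Hist2h2aa1 has near-identical histone copies, so its own value is uncertain. Irf5 was most like Tmco4 (0.916) and Notch1 (0.913), and these 2 genes were all that exceeded 0.9. Above that level there were 465 genes for Irf1, 536 for Irf7, 600 for Irf8 and 535 for Irf9.

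Parts of some transcripts overlap genes on the other strand, and the library kit as described does not keep strand. The overlap was 123 of 2959 exonic bases for Irf9 (with Rnf31), 100 of 2137 for Irf1 (with Gm17334), 45 of 2237 for Irf7 (with Phrf1) and 8 of 2031 for Irf3 (with Bcl2l12). Irf2, Irf5 and Irf8 had none.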

How the data were processed

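Liver poly-A RNA of 12 mice was sequenced from both ends with reads of 150 bp. The authors deposited 1 whole-number score per gene and mouse, already normalized between mice by a method not given in the sources used here. The submitters' processing notes name Bowtie2 2.2.1, RSEM 1.2.18 and the build mm10, without stating the role of each. Scores spread over nearly 1 distribution in all mice, so fold changes are relative to the other genes, and depth and counting error are unknown.

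Groups and replicate numbers came from the sample labels. The members, the gene lists and the tests were chosen with earlier results of these data known. The log2 of each score plus 1 entered a fit by limma 3.58.1 under R 4.3.3 (lmFit, eBayes with a trend) on all 12 mice without covariates, and p-values were adjusted by Benjamini-Hochberg over 11289 genes. A pseudocount of 1 understates the change of low genes. Ratios of members within a mouse were compared by two-sided exact permutation tests in scipy 1.17.1 (Python 3.11.15, with numpy 2.4.6 and pandas 2.3.3), and plots were drawn with matplotlib 3.10.9. The code was tested on simulated data. Count tests were not used, since the scores are not counts. 8 symbols occur more than once in the table, and no member is among them.

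The genes named were the members, from each pathway list the 3 with the largest change among those called after Con A and the 2 among those called between the Con A groups, and the 2 genes most like each member by Pearson's r. Some genes that meet this rule are not reported here. Transcript lengths came from GENCODE M21, and promoters from RefSeq GRCm38.p6, in which all 7 members were found in 10 windows.

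Same-numbered mice of different groups are different animals. Alternatives were another pseudocount, filter, normalization, variance model, set of mice, call rule, each mouse left out and the replicate number as a block.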

Additional observations from a re-analysis of the deposited data

Results flagged for a closer look

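A mouse stood apart from the other 3 of its group in 4 of the 93 groups tested, over 31 genes and ratios, where the gap to the nearest mouse, as a share of the group's range, was above Dixon's 95% critical value. Chance marks about 1 group in 20, and none of the 4 is a member. Cxcl9 was at 181 in control mouse 1 and between 292 and 310 in the other control mice. Ifngr2 was at 291 in Con A + PBS mouse 4 and between 468 and 498 in the others. Stat2 was at 1807 in control mouse 3 and between 1275 and 1322 in the others. Nos2 was at 6 in control mouse 3 and listed at 0 in the others.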

How the results depend on the processing

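After Con A, the calls of Irf1, Irf7 and Irf8 held under every alternative run, and that of Irf9 under every one but a fold limit of 2. Between the Con A groups, the count of members called lower was 2 over genes with a mean score of at least 100, 3 with unadjusted p, 0 with a fold limit of 2, and 0 to 3 with 1 mouse left out. Against control, a fold limit of 2 left 2 members higher and 0 lower with the cells. Differences near 0 changed sign when 1 mouse was left out: for Irf5 after Con A they ran from -0.24 to 0.04, and for Irf7 between the Con A groups from -0.19 to 0.04.

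The replicate numbers did not pair the mice. Correlations of deviations of same-numbered mice ran from -0.113 to 0.168 between control and Con A + PBS, from -0.118 to 0.112 between control and Con A + hWJ-MSCs and from -0.0866 to 0.375 between the Con A groups, and 1, 1 and 2 of 4 mice were most like the mouse of their own number. With the replicate number as a block, 2 members were called lower between the Con A groups (Irf5 and Irf1, whose limma adjusted p was 0.0447). For the ratios, the mean of the paired differences equals the difference of the group means by arithmetic (1.87 and 1.10 for Irf1 to Irf2 and 2.88 and 2.61 for Irf7 to Irf3, against control), so the block says nothing on their stability, and 4 pairs allow no exact permutation p below 0.125.

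With 1 mouse left out, the ratio differences of Irf1 to Irf2 were 1.64 to 2.03 after Con A, -0.93 to -0.54 between the Con A groups and 0.94 to 1.21 with the cells against control. For Irf7 to Irf3 they were 2.72 to 3.04, -0.38 to -0.19 and 2.45 to 2.77. A comparison of 4 mice with 3 allows no exact permutation p below 0.0571. The normalization had been done before deposit, genes of low score were absent, and the depth that would set the precision of low members such as Irf5 and Irf8 is unknown.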
